A study of Homo sapiens with 6 samples.

Results

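The zinc finger genes of chromosome 19 are the genes of the deposited table whose symbol is ZNF followed by a number, with at most 1 letter after it, and whose transcripts lie on chromosome 19. By this rule 255 of the 40173 genes in the table were members, with 1302 of its 151453 transcripts that carry a gene. The RNA came from HCT116, a human colorectal cancer cell line which had been stably transduced with lentivirus and selected with puromycin. The MOCK cells (genotype given as wild type) carried a control lentivirus, and the CYGB cells (genotype given as CYGB overexpression) carried a lentivirus with the coding region of CYGB, which encodes the haem protein cytoglobin, fused to FLAG. Each group had 3 libraries, described as biological replicates. Nothing states that they came from separate transductions, so a p-value here measures the spread between these libraries.

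C2H2 zinc finger proteins bind DNA through a row of fingers, each of which holds a zinc ion between a pair of cysteines and a pair of histidines, and the residues of each finger that touch DNA largely set which sequence is bound. Many of those on chromosome 19 also carry a KRAB domain, which recruits the corepressor TRIM28 and, through it, the histone methyltransferase SETDB1 and HP1 proteins. Transposable elements are among the best known targets of this silencing. The genes stand in clusters that arose by repeated tandem duplication, so that neighbours often resemble each other in sequence.

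The unit that all these genes share is shown first, as the coding sequence of the first finger of 3 members on which the results below turn and of finger 2 of ZNF91. The capitals mark the codons of the cysteines and histidines that hold zinc, and the 63 bases of each come from the last exon of the gene.

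ZNF146: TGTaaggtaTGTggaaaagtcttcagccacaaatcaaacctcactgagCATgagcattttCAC
ZNF581: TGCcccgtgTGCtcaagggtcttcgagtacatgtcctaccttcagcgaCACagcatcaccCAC
ZNF865: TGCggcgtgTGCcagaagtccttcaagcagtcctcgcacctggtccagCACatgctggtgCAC
ZNF91: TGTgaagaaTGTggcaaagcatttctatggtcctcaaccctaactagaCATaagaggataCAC

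These read from GRCh38 at chr19:36236492-36236554 (plus strand, exon 3 of 3), chr19:55644836-55644898 (plus strand, exon 2 of 2), chr19:55614294-55614356 (plus strand, exon 2 of 2) and chr19:23362115-23362177 (minus strand, exon 4 of 4), in the order printed. Of the 255 members, 240 are protein coding genes and 15 are pseudogenes in GENCODE 29. The coding members had a median of 12 fingers, from 0 in ZNF738 to 36 in ZNF208. Successive fingers were spaced 28 residues apart in 90.8% of cases. A KRAB A box pattern was found in 174 of the 240 coding members (72.5%). Only sequences that match this pattern were counted, so members without a match may still carry a KRAB domain. The pattern was present in 91.4% of the coding members of the cluster from ZNF101 to ZNF254. In the cluster from ZNF628 to ZNF835 it was present in 21.4%. ZNF146 has 10 fingers and no match to the KRAB pattern, ZNF865 has 20 fingers in a protein of 1059 residues, and ZNF581 has 4.

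The libraries held 58138393 to 66035266 counts, and the members took 0.193 to 0.209% of the counts assigned to genes in each of the 6 libraries. The transduced CYGB had 10, 28 and 34 counts in MOCK and 34935, 27681 and 32333 in CYGB replicates 1 to 3. The epithelial markers KRT8, KRT18, KRT19 and EPCAM were abundant. VIL1, a marker of the intestinal brush border, was low, with 22, 24 and 12 counts in MOCK and 34, 40 and 36 in CYGB, and its groups did not overlap. The leukocyte markers had at most 31 counts in a library, the endothelial marker VWF had 22 to 99, and CDH5 and PECAM1 had at most 8. Among the fibroblast markers, DCN and LUM had at most 4 counts and COL3A1 4 to 20, while COL1A1 had 2117 to 2823. The summed level of the 4 fibroblast markers was 17.2 to 18.2 TPM in MOCK and 18.7 to 25.4 TPM in CYGB. TPM here is counts per kilobase of transcript, scaled to the same total in every library.

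The level of these genes varied widely. Their median TPM was above that of all genes in the table. Among tested genes alone, the median of the members was below that of all genes tested. Over all 6 libraries, 78 of the 255 members averaged under 0.1 TPM, 18 lay from 0.1 to 1 TPM, 118 from 1 to 10 TPM and 41 at 10 TPM or more. No count was recorded in any library for 18 members, which allows up to 3 counts in a library, and 66 more had counts too low to be tested. The silent members were ZNF812P, ZNF625, ZNF563, ZNF43, ZNF209P, ZNF849P, ZNF681, ZNF382, ZNF345, ZNF284, ZNF285, ZNF229, ZNF677, ZNF583, ZNF470, ZNF835, ZNF256 and ZNF135, and they came from 8 of the clusters. The 171 tested members were 67.1% of the family. The share tested was 49.8% of all genes in the table and 56.4% of the other genes of chromosome 19. It was 80.4% of the zinc finger genes of other chromosomes chosen by the same symbol rule. These sets were not matched by gene type.

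Expression differed between the clusters. With a gap of over 500 kb taken as the end of a cluster, 240 members fell into 10 clusters of at least 5 members. The cluster from ZNF101 to ZNF254 (chr19:19668796-24129961) was the quietest, with a median of 0.025 TPM over its 39 members. Its members divided into 15 that were tested, at 0.437 to 12.9 TPM, and 24 under 0.1 TPM with at most 9 counts in a library. The tested and silent genes were interleaved: ZNF91 (779, 915 and 835 counts in MOCK) stands near ZNF681, which had no count in any library. The cluster from ZNF565 to ZNF573 (chr19:36182060-37817259) had the next lowest median, 0.111 TPM over 26 members, although it holds ZNF146, the member with the highest level. At the other end, the cluster from ZNF414 to ZNF846 (chr19:8509678-9793180) had a median of 9.67 TPM over 13 members. The cluster nearest the end of the chromosome, from ZNF264 to ZNF446 (chr19:57191500-58481230), had a median of 4.61 TPM, and 38 of its 42 members were tested. In the other clusters of over 20 members the medians were 1.70 TPM (ZNF653 to ZNF791, highest ZNF700 at 22.5 TPM), 3.65 TPM (ZNF575 to ZNF180, highest ZNF428 at 30.8 TPM) and 3.66 TPM (ZNF175 to ZNF331, highest ZNF83 at 35.3 TPM). The smaller clusters stood at 4.49 TPM (ZNF554 to ZNF77), 2.44 TPM (ZNF807 to ZNF792) and 4.85 TPM (ZNF628 to ZNF835, highest ZNF787 at 42.2 TPM). The cluster medians kept this split in each library: the quietest cluster lay at or below 0.047 TPM in all 6, and the ZNF414 to ZNF846 cluster at or above 8.32 TPM.

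**Figure D1:**
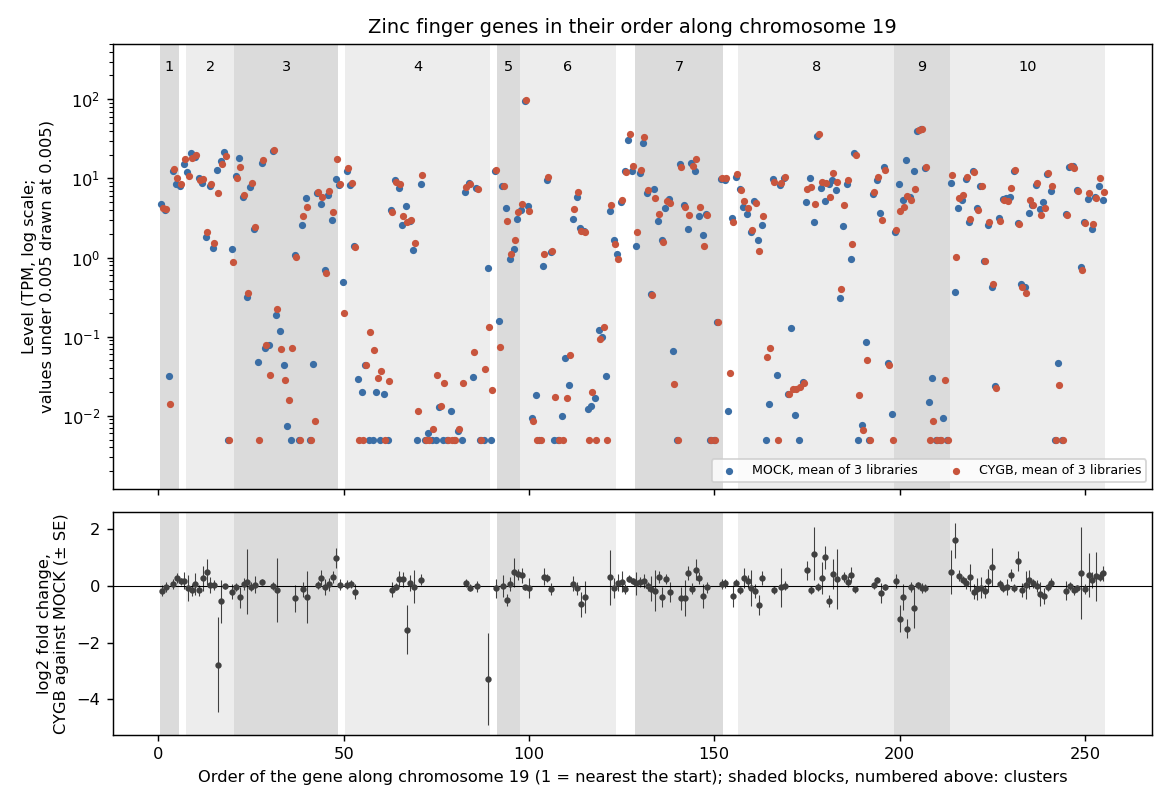
Upper panel, mean level (TPM, log scale) of each of the 255 members in the 3 MOCK and the 3 CYGB libraries, in their order along chromosome 19, with the 10 clusters shaded and numbered. Lower panel, log2 fold change of CYGB against MOCK with its standard error for the 171 tested members. Most points of clusters 4 and 6 lie under 1 TPM, whereas most of clusters 2 and 10 lie above it, and the fold changes scatter around 0 in every cluster.

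CpG-rich promoters are common at genes that many cell types use, and the promoters of the members differed in this respect. RefSeq promoter windows (GRCh38.p14, 250 bases before to 50 after the start) were matched for 210 members. These held a median of 20 CG dinucleotides, against 14 over all 35116 promoter windows. Windows with over 50% GC and an observed to expected CpG ratio above 0.6 made up 76.2% of the members' windows and 46.8% of all windows. The letters searched were CG, which reads the same on both strands. The windows of 4 members are shown because they span the range from a CpG-poor gene with almost no counts to the CpG-rich ZNF865, with every CG in capitals.

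ZNF93: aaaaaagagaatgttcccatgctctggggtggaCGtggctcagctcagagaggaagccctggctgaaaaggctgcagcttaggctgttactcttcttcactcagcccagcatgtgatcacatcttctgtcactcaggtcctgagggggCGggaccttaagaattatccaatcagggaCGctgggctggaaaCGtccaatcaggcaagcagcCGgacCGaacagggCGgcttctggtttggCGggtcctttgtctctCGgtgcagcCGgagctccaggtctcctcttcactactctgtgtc
ZNF382: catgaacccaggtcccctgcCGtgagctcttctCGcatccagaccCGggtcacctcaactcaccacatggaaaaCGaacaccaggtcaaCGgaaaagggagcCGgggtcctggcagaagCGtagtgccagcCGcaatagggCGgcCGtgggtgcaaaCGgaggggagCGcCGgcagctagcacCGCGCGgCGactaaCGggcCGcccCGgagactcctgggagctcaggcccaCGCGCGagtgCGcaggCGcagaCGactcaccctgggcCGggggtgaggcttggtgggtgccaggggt
ZNF146: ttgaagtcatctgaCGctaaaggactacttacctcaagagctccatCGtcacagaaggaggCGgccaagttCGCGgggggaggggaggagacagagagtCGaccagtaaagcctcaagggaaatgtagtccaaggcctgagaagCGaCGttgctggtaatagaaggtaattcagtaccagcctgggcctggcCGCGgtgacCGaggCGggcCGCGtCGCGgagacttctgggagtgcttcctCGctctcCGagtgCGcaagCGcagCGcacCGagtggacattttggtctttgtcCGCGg
ZNF865: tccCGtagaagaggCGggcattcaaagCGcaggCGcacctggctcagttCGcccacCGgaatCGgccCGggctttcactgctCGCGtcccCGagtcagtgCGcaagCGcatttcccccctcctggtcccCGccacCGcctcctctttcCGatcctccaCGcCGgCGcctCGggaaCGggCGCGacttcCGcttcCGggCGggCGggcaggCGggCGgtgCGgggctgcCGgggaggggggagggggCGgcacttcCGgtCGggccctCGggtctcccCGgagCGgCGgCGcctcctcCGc

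In the order printed, they lie at chr19:19900696-19900995, chr19:36605063-36605362, chr19:36214856-36215155 and chr19:55605397-55605696, all on the plus strand. ZNF93, which represses L1 elements, had 10 CG in its window, and its counts were 4 in MOCK replicate 1 and 0 in the other 5 libraries. ZNF382, a KRAB repressor known to be silenced by promoter methylation in several tumour types, had 27 CG. Its 1 transcript in the table had no count in any library. ZNF146 had 24 CG and the highest level of all members. Its window begins after position 36214602, where ENST00000456324, the transcript with most of its counts in 4 libraries, starts. The windows follow RefSeq starts, so a window may not hold the start of the transcripts counted. ZNF865 had 40 CG.

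A high CG content did not go with expression in every cluster. In the quietest cluster the median was 10 CG over 27 matched members, with 10 in the tested and 9.5 in the untested members. In the cluster of ZNF146 it was 22.5 over 24 matched members, and it was 22.5 in both the 12 tested and the 12 untested members. The 15 matched members without any count had a median of 21 CG, against 21 in all tested members and 22.5 in those at 10 TPM or more. Windows past the GC and CpG ratio limits above made up 73.3% of members without any count and 67.7% of all untested members. The share was 79.7% of tested members and 89.5% of those at 10 TPM or more. In the quietest cluster it was 7.69% of tested and 14.3% of untested members. Across the 210 members, Spearman's rho between the number of CG and the level was 0.17. Neighbouring members share sequence by descent, so they are not independent points. DNA methylation was not measured.

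**Figure D2:**
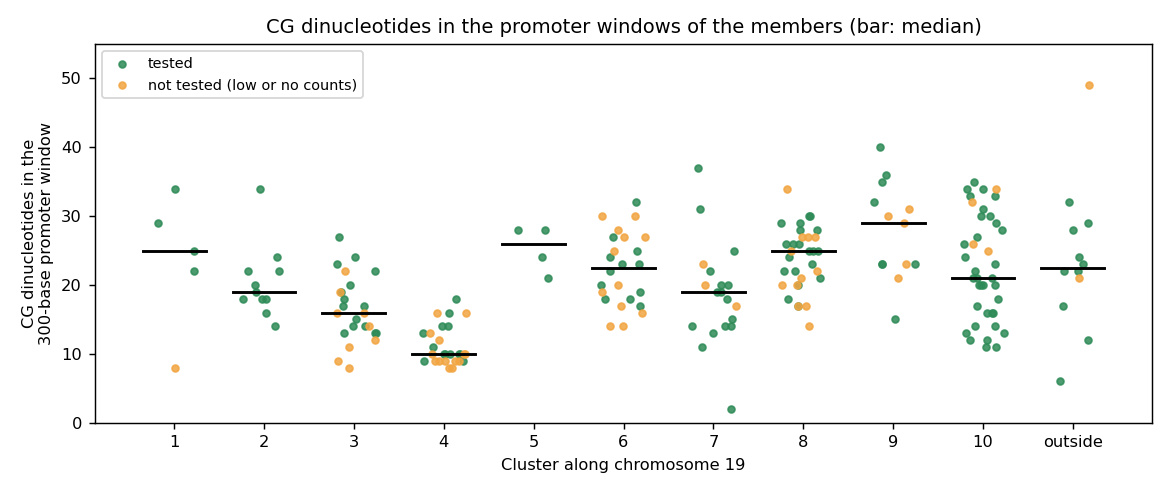
Number of CG dinucleotides in the 300-base promoter window of the 210 matched members, by cluster along chromosome 19, with tested members in green, members with low or no counts in orange and the median as a bar. Cluster 4 sits lowest with a median of 10, and tested and untested members of cluster 6 overlap.

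CYGB overexpression was next compared with MOCK to ask whether the family moved as a group. It did not shift in one direction. The median log2 fold change (CYGB against MOCK) of the 171 tested members was 0.018, with 87 members above 0 and 84 below, and the middle 50% lay between -0.13 and 0.22. The median was -0.0070 over all genes tested, 0.020 over zinc finger genes of other chromosomes chosen by the same symbol rule, and 0.0080 over the other genes of chromosome 19. Of the 171 members, 153 differed by less than 0.5 on the log2 scale in either direction. Of the other 18, 8 lay above 0.5 and 10 below -0.5, and the extremes were 1.61 for ZNF805 and -3.27 for ZNF254.

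Few members passed a test. By the threshold of the study's methods, an unadjusted p of at most 0.01 and a ratio of at least 2 or at most 0.5, 1 of the 171 members was called, ZNF865, which fell. Over all genes tested, 0.565% were called by the same rule, and 0.285% were called as lower. After Benjamini-Hochberg adjustment over all 19987 genes, edgeR's quasi-likelihood test gave 0 members with an adjusted p under 0.05, against a background of 0.055%. An unadjusted p under 0.05 was reached by 6 members, beside 4.54% of all genes. DESeq2 gave 1 member with an adjusted p under 0.05, again ZNF865, where it called 0.54% of all genes, and edgeR's exact test gave 0, where it called 0.32%. Under both, ZNF865 was again the 1 member past the threshold of the methods, beside 1.32% and 1.28% of all genes.

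In 14 of the 171 members the 3 CYGB libraries did not overlap the 3 MOCK libraries, 13 of them higher and 1 lower in CYGB. This was 8.19% of the members, where 11.0% of all genes tested did not overlap (5.72% higher and 5.31% lower). The 13 higher members were ZNF440, ZNF557, ZNF526, ZNF525, ZNF543, ZNF567, ZNF77, ZNF321P, ZNF134, ZNF702P, ZNF792, ZNF551 and ZNF805, with log2 fold changes from 0.13 to 1.61. They lie in 6 of the 10 clusters and outside them, and none of them passed the threshold of the methods.

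**Figure D3:**
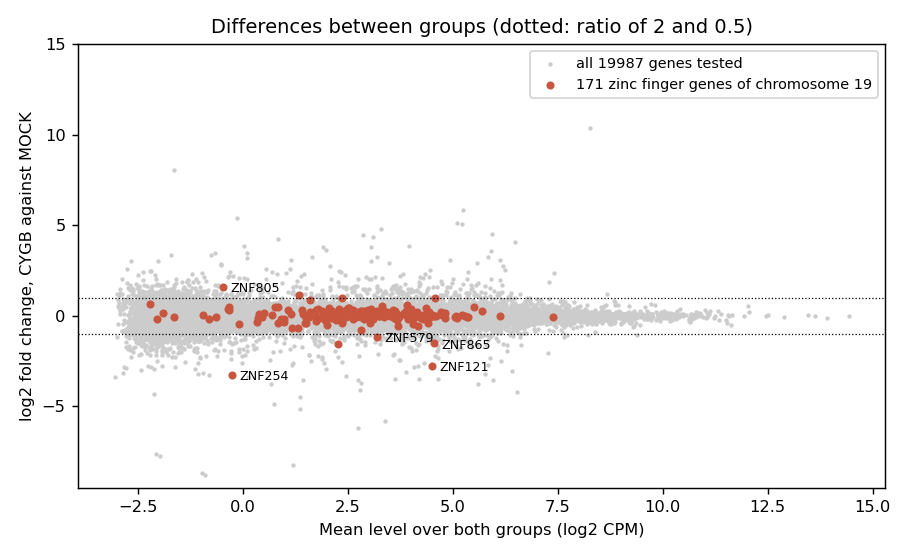
Log2 fold change of CYGB against MOCK by mean level (log2 CPM, counts scaled to the normalised library size) for all 19987 genes tested (grey) and the 171 tested members (red), with dotted lines at ratios of 2 and 0.5. Most members lie between the dotted lines, and the labelled members outside them are ZNF805 above and ZNF579, ZNF865, ZNF121 and ZNF254 below.

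ZNF865 (ENSG00000261221, chr19:55605405-55617269, plus strand, 1 transcript in the table) encodes a protein of 20 fingers without a match to the KRAB pattern. Its counts were 2069, 2166 and 1059 in MOCK and 480, 801 and 612 in CYGB. All 3 CYGB libraries lay below the lowest MOCK library, and MOCK replicate 3 lay between the CYGB libraries and the other MOCK libraries. The normalised level averaged 35.1 ± 12.7 CPM in the MOCK libraries and 12.3 ± 3.18 CPM in the CYGB libraries (SD, n = 3 each; CPM, counts scaled to the TMM-normalised library size). The log2 fold change was -1.51 (standard error 0.34). By edgeR's quasi-likelihood test the unadjusted p was 0.0042, and the Benjamini-Hochberg adjusted p was 0.963. Over the alternatives the log2 fold change stayed between -1.78 and -1.32, and the adjusted p ranged from 0.0131 (DESeq2) to 0.9997. The call by the threshold of the methods was lost when replicate 1 or 2 of MOCK was left out (log2 fold change -1.32 and -1.39), and also when replicate 1 or 3 of CYGB was (-1.36 and -1.47).

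None of the 150-base windows of ZNF865 occurred in another gene. Only identical windows were counted, so whether reads were shared with a gene of similar sequence was not tested. An antisense gene, AC008735.4, lies on the minus strand between the 2 exons of ZNF865 and overlaps neither, with 68, 70 and 66 counts in MOCK and 44, 41 and 43 in CYGB, so its groups did not overlap either (log2 fold change -0.70).

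The genes around ZNF865 differed among themselves. ZNF579, which lies on the minus strand on the side of the chromosome start, had 720, 956 and 252 counts in MOCK and 308, 236 and 335 in CYGB. Its MOCK replicate 3 lay within the range of the CYGB libraries, and the log2 fold change of -1.16 (standard error 0.48) gave an unadjusted p of 0.0503 in edgeR's quasi-likelihood test. ZNF580 had 169, 977 and 230 counts in MOCK and 401, 169 and 229 in CYGB, so its log2 fold change of -0.76 came with overlapping groups and a single high library, MOCK replicate 2. ZNF524, ZNF784 and ZNF581, also within 100 kb, had log2 fold changes of -0.40, -0.05 and 0.02. Among neighbours that are not members, FIZ1 had -0.07 and EPN1 -0.10, both with overlapping groups. U2AF2, a splicing factor subunit, had 0.24, and its groups did not overlap. The groups also did not overlap for SBK3 (0.42) and AC010525.1 (1.67), both with at most 47 counts in a library. Over all genes tested, 11.0% did not overlap.

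The members with the smallest unadjusted p after ZNF865 had log2 fold changes of both signs, and none of them passed an adjusted threshold. ZNF791 had 611, 1114 and 727 counts in MOCK and 2220, 974 and 1647 in CYGB, a log2 fold change of 0.97 (standard error 0.35). CYGB replicate 2 lay inside the MOCK range. ZNF805 was a low gene with 5, 24 and 26 counts in MOCK and 74, 30 and 64 in CYGB, a log2 fold change of 1.61 (standard error 0.62), and its groups did not overlap. ZNF551 had 72, 120 and 135 counts in MOCK and 289, 157 and 154 in CYGB, a log2 fold change of 0.87 (standard error 0.35), also without overlap. Per length the picture for ZNF551 was different: it was 2.72 ± 0.18 TPM (SD, n = 3) in MOCK and 2.64 ± 0.90 TPM (SD, n = 3) in CYGB.

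ZNF600 had 177, 244 and 101 counts in MOCK and 465, 368 and 225 in CYGB, a log2 fold change of 1.00 (standard error 0.41). Its CYGB replicate 3 lay below MOCK replicate 2. ZNF28, a neighbour of ZNF600, had 845, 656 and 820 counts in MOCK and 638, 426 and 563 in CYGB, a log2 fold change of -0.54 (standard error 0.22), with CYGB replicate 1 just above MOCK replicate 2 in CPM. These adjacent members therefore had opposite signs. ZNF181, with 166, 278 and 276 counts in MOCK and 177, 181 and 155 in CYGB, had a log2 fold change of -0.50. ZNF792 had 191, 257 and 302 counts in MOCK and 313, 331 and 358 in CYGB, a log2 fold change of 0.40 without overlap. ZNF567 had 521, 549 and 613 against 750, 680 and 645 counts, a log2 fold change of 0.28 without overlap. The unadjusted p of these 8 members by edgeR's quasi-likelihood test ran from 0.0300 (ZNF791) to 0.0884 (ZNF567), and each had a Benjamini-Hochberg adjusted p of 0.963. ZNF134 was, with ZNF551 and ZNF792, among the 3 largest positive log2 fold changes of members that averaged 1 CPM or more over the 6 libraries and whose groups did not overlap (ZNF805 averaged less). It had 738, 834 and 532 counts in MOCK and 1017, 925 and 854 in CYGB, a log2 fold change of 0.39.

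**Figure D4:**
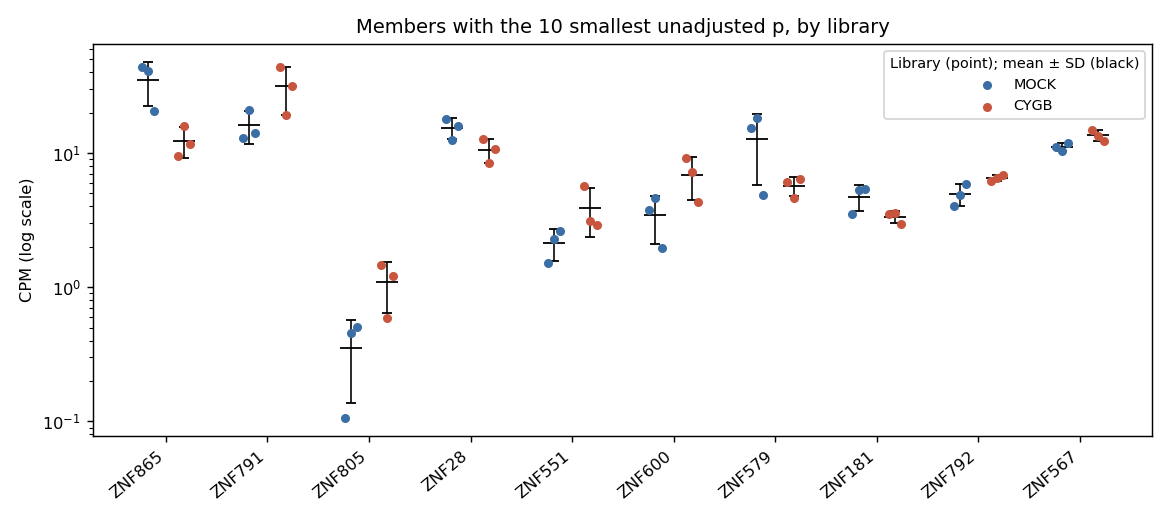
Normalised level (CPM, log scale) in each library of the 10 members with the smallest unadjusted p, with MOCK in blue, CYGB in red and the mean ± SD in black. The groups do not overlap for ZNF865, ZNF805, ZNF551, ZNF792 and ZNF567, and they overlap for the other 5 members.

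The groups overlapped for each of the most abundant members. ZNF146 (ENSG00000167635, chr19:36214602-36238774), which consists almost entirely of zinc fingers, stood at 95.9 ± 7.21 TPM (SD, n = 3) in MOCK and 97.6 ± 4.84 TPM (SD, n = 3) in CYGB. It had 7546, 9383 and 9189 counts in MOCK and 9109, 8512 and 7867 in CYGB, a log2 fold change of -0.05. ZNF787 followed at 42.7 ± 6.89 and 41.8 ± 6.38 TPM, ZNF581 at 39.6 ± 1.88 and 41.4 ± 3.17 TPM, ZNF83 at 34.7 ± 4.66 and 35.9 ± 1.73 TPM, and ZNF574 at 30.2 ± 4.46 and 36.8 ± 1.56 TPM (SD, n = 3 in each group). ZNF146 lay above the other 4 in every library, while the levels of ZNF787 and ZNF581 did not differ beyond their spread. The log2 fold changes of ZNF787, ZNF581, ZNF83 and ZNF574 were -0.07, 0.02, -0.04 and 0.25. The signs of the first 3 and that of ZNF146 turned when some single library was left out.

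Members with a known role were silent or had groups that overlapped. ZNF91, which represses SVA elements, had 779, 915 and 835 counts in MOCK and 801, 867 and 773 in CYGB, a log2 fold change of -0.07 (standard error 0.12). For ZNF274, which binds the ends of other zinc finger genes and recruits SETDB1 there, the log2 fold change was -0.0035 (standard error 0.13). ZNF304, a KRAB protein described in gene silencing in colorectal cancer, had 0.09 (standard error 0.20). ZNF350, a partner of BRCA1, had -0.18 (standard error 0.24). ZNF473, which takes part in the processing of histone mRNA, had 0.11 (standard error 0.12). ZNF224, known as a repressor of the aldolase A gene, had 1066, 769 and 1031 counts in MOCK and 387, 1133 and 633 in CYGB. In CPM, CYGB replicate 2 lay within the MOCK range and the other CYGB libraries below it, and the log2 fold change was -0.44 (standard error 0.41). ZNF331, an imprinted gene with 1 transcript in the table, had 4 counts in MOCK replicate 1 and 0 in the other libraries. With so few counts the groups could not be compared.

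Members above and below 0 were spread along the chromosome. The median log2 fold change of the 10 clusters ran from -0.08 in the cluster from ZNF628 to ZNF835, which holds ZNF865 and where 2 of 9 tested members were above 0, to 0.07 in the cluster from ZNF264 to ZNF446, where 21 of 38 were. In the quietest cluster the tested members had a median of -0.02, with 7 above and 8 below 0. Coding members with the KRAB pattern had a median of -0.02 (52 above and 64 below 0) and those without it 0.06 (30 above and 20 below 0). The members without the pattern may include some with a KRAB domain that differs from it. No test of these splits was made.

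Some large fold changes rested on a single library. In 7 of the 171 tested members (4.09%) 1 library stood at least 5-fold above or below all the others, against 4.54% of all genes tested. These were ZNF121, ZNF254, ZNF264, ZNF225, ZNF607, ZNF763 and ZNF773. ZNF121 had 5449, 36 and 207 counts in MOCK and 360, 342 and 195 in CYGB, which gave a log2 fold change of -2.77 with a standard error of 1.67. Of the 5449 counts in MOCK replicate 1, 5308 were on the long transcript ENST00000586602, which had 0, 69, 0, 183 and 0 counts in the other libraries. ZNF254, the member with the lowest log2 fold change (-3.27, standard error 1.62), had 223 counts in MOCK replicate 2 and 1 to 18 in the rest. ZNF264 had 246 counts in MOCK replicate 1 and 2613 to 2933 in the other 5 libraries. ZNF225 had 81 counts in CYGB replicate 1 and 465 to 524 elsewhere. The lowest log2 fold change after ZNF254 and ZNF121 was that of ZNF708 (-1.54, standard error 0.86), a KRAB gene with 14 fingers. It had 276, 365 and 456 counts in MOCK and 34, 42 and 311 in CYGB, where replicate 3 lay within the MOCK range.

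The table counts transcripts, so the isoforms of the members were compared as well. Of the 1302 member transcripts, 480 from 167 members were tested, and 7 of them (1.46%) passed the threshold of the methods, 5 higher and 2 lower in CYGB. Over all 66609 transcripts tested, 1.02% passed it, 0.54% higher and 0.482% lower. After Benjamini-Hochberg adjustment, edgeR's quasi-likelihood test gave 0 member transcripts with an adjusted p under 0.05, beside 0.015% of all transcripts, and 16 (background 3.78%) with an unadjusted p under 0.05. DESeq2 gave 6 with an adjusted p under 0.05 (background 1.12%) and edgeR's exact test 5 (background 0.779%). The 5 were ENST00000587252 of ZNF581 and the transcripts of ZNF468, ZNF567, ZNF227 and ZNF100 described below. With DESeq2, ENST00000591278 of ZNF317 joined them. By the threshold of the methods DESeq2 called 11 member transcripts (background 2.26%) and the exact test 8 (background 1.66%). The groups did not overlap for 44 member transcripts (9.17%), 32 higher and 12 lower in CYGB, where 10.4% of all transcripts did not overlap (5.19% higher and 5.25% lower). The 7 transcripts belonged to ZNF581 (2 transcripts), ZNF468, ZNF567, ZNF865, ZNF227 and ZNF100.

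In ZNF581 the counts assigned to isoforms differed between the groups while the total stayed level. Its transcript ENST00000587252 (chr19:55635459-55645622) had 572, 658 and 1033 counts in MOCK and 0 in all 3 CYGB libraries, at least 252-fold lower with a floor of 3 counts per library. In edgeR's quasi-likelihood test the unadjusted p was 9e-05 and the Benjamini-Hochberg adjusted p 0.124. The adjusted p was 3.6e-17 by DESeq2 and 2.3e-16 by edgeR's exact test. By the quasi-likelihood test with replicate number as a block it was 0.995. The transcript passed the threshold of the methods under all 13 alternatives. Transcript ENST00000270451 (chr19:55643547-55645622), which starts closer to the finger exon printed above, had 731, 648 and 372 counts in MOCK and 1273, 1312 and 1557 in CYGB, a log2 fold change of 1.23 (standard error 0.31). It passed the threshold under 5 of the 13 alternatives, and with a library left out only without MOCK replicate 1 (log2 fold change 1.47; 0.99 to 1.28 without one of the others). Summed over transcripts, ZNF581 had 1316, 1320 and 1405 counts in MOCK and 1273, 1329 and 1585 in CYGB. Of the 150-base windows of these transcripts, 21.5% of the first and 19.7% of the second occur in no other transcript of the gene, and how reads were divided among isoforms was not stated. ZNF581 overlaps ZNF580 and CCDC106 on the same strand, and ENST00000587252 starts inside ZNF580. Of all windows of ZNF581, 6.95% occur in another gene. Which gene the reads of these transcripts came from was not tested.

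ZNF468 showed a gain on a transcript that resembles another gene. Its transcript ENST00000391781 (chr19:52876172-52890375) had 0, 2 and 1 counts in MOCK and 1261, 83 and 176 in CYGB, a ratio of 505 over the summed counts (95% counting interval 172 to 2449). CYGB replicate 1 held most of these counts, and without it the ratio was 128 (43.5 to 627). The call by the threshold of the methods was lost without MOCK replicate 3 (unadjusted p = 0.0133 by edgeR's quasi-likelihood test). This transcript lies inside ZNF320, with which it shares 99.1% of its 150-base windows, and ZNF320 had 60, 1020 and 667 counts in MOCK and 126, 1119 and 787 in CYGB. In sum the 2 had 60, 1022 and 668 counts in MOCK and 1387, 1202 and 963 in CYGB. The other transcripts of ZNF468 lie apart, with 916, 736 and 1030 counts in MOCK and 1029, 582 and 492 in CYGB. The gain of this transcript is therefore uncertain as a change of ZNF468.

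The remaining transcripts were lower in abundance. ENST00000585696 of ZNF567 had 18, 13 and 20 counts in MOCK and 141, 49 and 132 in CYGB, a log2 fold change of 2.63 (standard error 0.52). Its call was lost when any 1 of the MOCK libraries or CYGB replicate 3 was left out (log2 fold change 2.45 to 2.76). The transcript ENST00000586228 of ZNF227, with 0 counts in MOCK and 24, 28 and 19 in CYGB, was at least 7.87-fold higher. ENST00000598026 of ZNF100, with 0 counts in MOCK and 41, 23 and 14 in CYGB, was at least 8.66-fold higher, and its call was lost without CYGB replicate 1 or 2 (unadjusted p of 0.0134 and 0.0135 by edgeR's quasi-likelihood test). Neither reached 1 CPM.

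Isoform use also changed between libraries of the same group. ZNF146 had most of its counts on ENST00000456324 in 4 libraries (9119 and 8938 in MOCK replicates 2 and 3, 8812 and 8239 in CYGB replicates 1 and 2). In CYGB replicate 3 it had 839 there and 6894 on ENST00000443387, and in MOCK replicate 1 it had 3378 and 4128. Its gene total varied little beside this. The leading transcript was the same in all 6 libraries in 59 of 127 members with at least 2 tested transcripts (46.5%), against 56.4% of 11478 genes. These sets were not matched by number of transcripts or by level. Of the 255 members, 171 shared no 150-base window with another gene, 28 shared over 10% of their windows and 8 shared over 50%. Among the latter were ZNF177 (81.0%), ZNF709 (79.5%), ZNF320 (69.8%) and ZNF468 (50.5%), whose counts are uncertain for that reason.

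**Figure D5:**
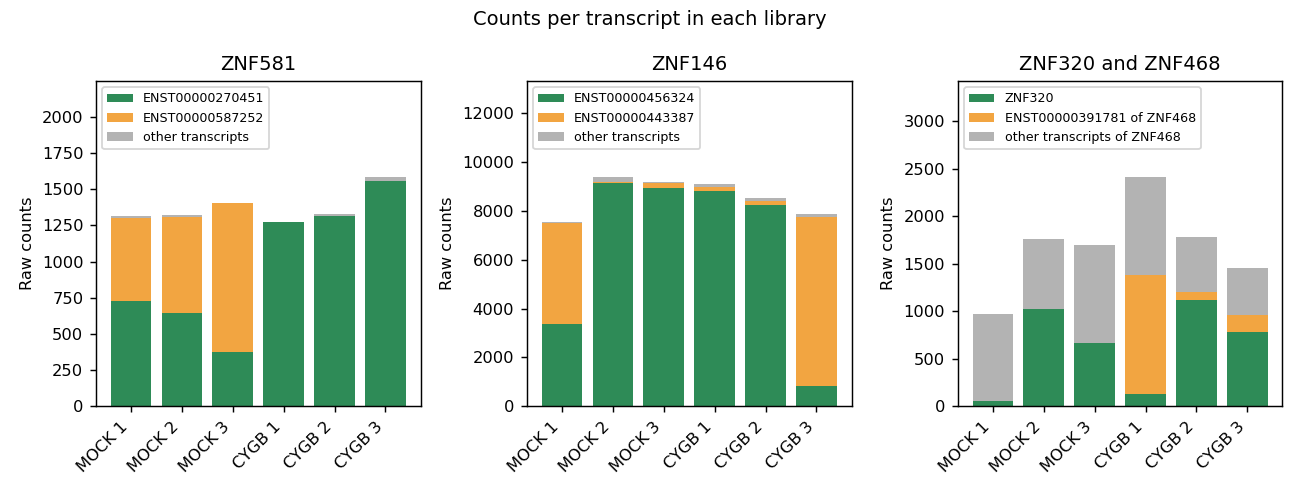
Raw counts per transcript in each of the 6 libraries, stacked by transcript, for ZNF581, for ZNF146 and for ZNF320 with ZNF468. ENST00000587252 of ZNF581 is present in the 3 MOCK and at 0 in the 3 CYGB libraries while the bar heights stay close, whereas the leading transcript of ZNF146 differs in MOCK replicate 1 and CYGB replicate 3 from the other 4 libraries.

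The partners through which KRAB zinc finger proteins act were also measured. Of 19 such genes, all tested, 0 passed the threshold of the methods (background 0.565%) and 0 had an adjusted p under 0.05 by edgeR's quasi-likelihood test, with 1 at an unadjusted p under 0.05. Their median log2 fold change was 0.017. TRIM28, the corepressor that binds KRAB domains, had 34443, 37181 and 34897 counts in MOCK and 38929, 33644 and 39079 in CYGB, a log2 fold change of 0.04 (standard error 0.08). SETDB1, which methylates histone H3 at these sites, had 753, 1267 and 1440 counts in MOCK and 1794, 794 and 1685 in CYGB, with overlapping groups and a log2 fold change of 0.29 (standard error 0.36). MORC2, an ATPase of the HUSH silencing pathway, had 465, 184 and 68 counts in MOCK and 363, 1724 and 1316 in CYGB, a log2 fold change of 2.18 (standard error 0.86). CYGB replicate 1 lay within the MOCK range, and the log2 fold change was 3.20 without MOCK replicate 1 and 1.72 without CYGB replicate 2. It was the gene at an unadjusted p under 0.05 (0.0447 by edgeR's quasi-likelihood test), and it passed the threshold of the methods under 1 of the 13 alternatives, DESeq2, where 1.32% of all genes passed. Partners whose groups did not overlap included DNMT1, the maintenance DNA methyltransferase, which was higher in CYGB, and MPHOSPH8, the chromodomain protein of the HUSH complex, which had 3678, 2426 and 2375 counts in MOCK and 2112, 2014 and 1973 in CYGB.

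Of 16 symbols outside the rule listed for zinc finger genes of chromosome 19, such as ZFP14, ZSCAN22 and MZF1, 15 were in the table. Of these genes 5 were tested. None of the 5 passed the threshold of the methods, had an unadjusted p under 0.05 or had groups that did not overlap, and their median log2 fold change was 0.06. ZSCAN1, ZSCAN4 and ZIM2 had no count in any library.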

How the data were processed

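RNA of the 6 libraries (3 MOCK, 3 CYGB) was prepared with the NEBNext Ultra kit and sequenced as paired 150-base reads. The table that the authors deposited gives unnormalized counts, 1 row per transcript. The submitters' processing notes name HISAT2, HISAT, DESeq2 and hg19 without roles, and the counting tool and its use of strand are not given in the sources used here. Transcript positions matched those of GENCODE 29 in 99.6% of cases, and coordinates are therefore given as GRCh38. Library sizes and tests left out 21225 transcripts that carry no gene, which took 18.6 to 19.5% of each library.

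Counts were summed per gene. For genes and for transcripts, edgeR 4.0.16 in R 4.3.3 was run over the whole table: filterByExpr at a minimum count of 10, TMM, glmQLFit and glmQLFTest, then Benjamini-Hochberg adjustment. The standard error is the size of the log2 fold change divided by the square root of F. DESeq2 1.42.0 and edgeR's exact test were among the alternatives. The gene-level quasi-likelihood fit was also run on simulated counts with known changes. The transcript fits and the alternatives were not simulated. Between libraries, the biological coefficient of variation was 36.6% (genes) and 78.9% (transcripts). TPM was computed with GENCODE 29 transcript lengths. The 95% interval of a ratio of counts and the floor of 3 counts per library cover counting error only.

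Fingers were counted in translated GENCODE 29 coding sequences as 2 cysteines 2 to 4 residues apart, 12 residues, and 2 histidines 3 to 5 residues apart. The KRAB A box was searched with a pattern of its conserved residues, which misses boxes that differ from it. Members named were those past either threshold, the 10 smallest unadjusted p, the 5 highest levels per length, the 3 largest rises and falls without overlap at a mean of 1 CPM or more over all libraries, and 9 with known roles. Transcripts named were the 3 largest rises and falls past the threshold with a group at 1 CPM or more and no overlap. ZNF227, ZNF100 and ZNF317 transcripts, ZNF146 isoforms, ZNF708, members with a lone library and neighbours of ZNF865 were named after their values were seen. KRAB partners other than those named, which were picked after their values were seen, are not reported here singly. The members and all lists were chosen with earlier results of these data known.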

Additional observations from a re-analysis of the deposited data

How the results depend on the processing

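The number of members past the threshold of the methods was 1 (ZNF865) under 6 alternatives that kept all libraries. It was 2 with the most abundant transcript of each gene (ZNF581 and ZNF865), and from 0 to 3 with a library left out: 0 without MOCK replicate 1 or CYGB replicate 1, 2 without MOCK replicate 2 (ZNF137P and ZNF611) or CYGB replicate 2 (ZNF791 and ZNF865), 1 without CYGB replicate 3 (ZNF708) and 3 without MOCK replicate 3 (ZNF227, ZNF579 and ZNF865). Adjusted p under 0.05 was reached by 1 member with DESeq2 (ZNF865, log2 fold change -1.51, adjusted p = 0.0131) and by none under the other alternatives. Members without overlap numbered 27 to 36 with a library left out, where fewer libraries have to separate. The median log2 fold change of the members stayed between -0.0045 (no filter on low counts) and 0.041. Member transcripts past the threshold numbered 11 with DESeq2, 4 with a mean of at least 50 counts (fewer were tested), and 7 to 14 with a library left out, the most without MOCK replicate 3, followed by 11 without MOCK replicate 2. Transcripts with an adjusted p under 0.05 numbered 6 with DESeq2 and 5 with edgeR's exact test. Among the KRAB partners, 1 gene (MORC2) passed the threshold with DESeq2. A gap of 1 Mb gave 9 clusters. The cause of these shifts was not tested unless stated.

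The labels do not say whether libraries with the same replicate number were prepared together. Deviations of same-numbered libraries from their group means correlated at 0.032, 0.0067 and 0.032, which does not settle it. With the replicate block, 2 members (ZNF600 and ZNF865) and 2 transcripts (of ZNF567 and ZNF581) passed the threshold.

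The sign turned for 7 of the named members. With a library left out, ZNF146 ranged from -0.12 to 0.019, ZNF274 from -0.060 to 0.064, ZNF304 from -0.072 to 0.29, ZNF581 from -0.054 to 0.075, ZNF787 from -0.20 to 0.065 and ZNF83 from -0.11 to 0.052. ZNF274 was 0.0013 with transcripts without a gene in the library sizes, and ZNF567 was -0.15 by its most abundant transcript. With 36.6% variation between libraries and 3 libraries per group, small differences could not be told from 0.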
